A study of Mus musculus with 13 samples.

Results

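The ESCRT machinery (endosomal sorting complexes required for transport) was examined in the RNA sequencing of TSG101-induced mammary tumors. Its 32 genes were taken by name from the 15213 genes of the expression table and cover ESCRT-0, ESCRT-I, ESCRT-II, ESCRT-III, the VPS4 ATPases with their cofactor, and the partner proteins of the Bro1 family and the midbody. All 32 were listed in the table, and 31 passed the filter on low values (above 5 normalized cpm in most libraries). Vps37d was the member that did not pass.

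Libraries were made from the total RNA of 10 mammary tumors, grown in MMTV-tTA TetO-Tsg101 females, and of the glands of 3 wild-type FVB females. The double transgenic females carry full-length mouse TSG101 with an HA tag and a luciferase reporter behind a tetracycline operator. They also carry the transactivator tTA behind the Mouse Mammary Tumor Virus promoter. In mammary ducts without the Tsg101 transgene, tTA acts in part of the luminal epithelium. In the carcinomas, the paper saw a reporter driven by tTA in basal cells as well. The transgene is carried by a single founder line, the genetic background is FVB throughout, and the sources used here give neither the age of the females at collection nor the reproductive stage of the glands. The 10 tumors came from 6 mice: tumors 2 and 3 shared a mouse, tumors 5 and 6 shared another, tumors 8, 9 and 10 shared a further one, and tumors 1, 4 and 7 came from a mouse each. The 3 glands came from a mouse each.

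The ESCRT machinery sorts ubiquitinated membrane receptors into the lumen of late endosomes, from where they reach the lysosome. ESCRT-0 gathers the cargo, ESCRT-I with TSG101 passes it on and bridges to ESCRT-II, and filaments of ESCRT-III proteins pinch off the vesicle before VPS4 takes the filaments apart. The same late components close the membrane bridge between daughter cells at the end of mitosis, where CEP55 recruits TSG101 and ALIX to the midbody. In the mammary epithelium, this pathway is known for the turnover of EGF and ERBB receptors.

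Values are read counts that the authors divided by the effective size of each library, called normalized cpm from here on. The tumors held between 6176269 and 16835397 reads and the glands between 11672487 and 23889042 reads, so that 3 reads, the limit that a count of 0 allows at 95% confidence, amounted to between 0.128 and 0.683 normalized cpm. Only counting error enters this limit. The ribosomal RNA precursor Rn45s took between 0.456% and 27.4% of a tumor library, with the highest share in tumor 9, and 0.324%, 0.296% and 4.35% of glands 1, 2 and 3. The defining markers of the labelled tissues were present. The 13 epithelial markers summed to 2477 to 4782 normalized cpm in a tumor and 1413 to 3189 in a gland, and the 8 squamous markers to between 405 and 3350 in the tumors and between 6.55 and 20.2 in the glands, with Ivl, Klk7, Krt1, Krt6a, Sprr1a and Sprr1b at 0 in at least 1 library. The 10 adipocyte markers summed to between 95.8 and 529 in the tumors and between 4288 and 11578 in the glands. The 6 milk genes summed to between 1309 and 49195 in the tumors and between 117394 and 175636 in the glands. The total of all genes in a gland was 1.02e+06 to 1.42e+06 normalized cpm. In such bulk samples, fewer cells of a type and less RNA per cell cannot be told apart.

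Between tumors and glands, Tsg101 itself was not called different. The gene has the Entrez ID 22088 and lies on chromosome 7 of GRCm38.p6, from 46888949 to 46926320. Its level was 45.6, 53.0 and 61.0 normalized cpm in glands 1, 2 and 3 and ranged from 49.9 to 101 in the tumors, with a median of 63.4. Tumor 9 had the highest level, and 6 of 10 tumors lay above all glands while the other 4 lay within the gland range. The tumors averaged 66.5 ± 15.5 (SD, n = 10) and the glands 53.2 ± 7.68 (SD, n = 3). This amounted to a log2 fold change of 0.30 with a standard error of 0.20 (limma, adjusted p = 0.296), on the log2(normalized cpm + 1) scale that holds for all fold changes given here. The Tsg101 row holds between 444 and 1322 reads a library. It counts reads of the transgene, which holds the coding sequence, together with those of the endogenous gene, so that their levels cannot be told apart. The call and the sign of the log2 fold change depended on the scaling of the libraries, which moves all genes together. With plain cpm of the total reads the log2 fold change was 0.62 (limma, adjusted p = 0.0166), where the median of all genes also stood at 0.33. With scaling to the mean log2 level of the 13 epithelial markers it was -0.54 (limma, adjusted p = 0.237), where the median of all genes stood at -0.81. After removal of the trend with GC content and length it was 0.052 (limma, adjusted p = 0.779). Relative to the median of all genes, Tsg101 stood at 0.28 in the fit as reported. It stood at 0.29, 0.27 and 0.13 in these alternatives, in the order given. Over the 29 alternatives the adjusted p ranged from 0.0166 to 0.828 with 1 of them past the threshold.

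Within the mouse of tumors 8, 9 and 10, Tsg101 spanned 46.0 normalized cpm (55.3, 101 and 71.0). The span over all tumors was 51.4, so that tumors of 1 mouse covered most of it. Tumor 9 alone set the upper end of both spans, and without it the tumors ranged from 49.9 to 79.3. In the mouse of tumors 2 and 3 the span was 12.8, and in the mouse of tumors 5 and 6 it was 14.1. Scaled to exon length, the mean Tsg101 level was 34.1 normalized cpm per kb in the tumors and 27.3 in the glands, which placed it in rank 12 of 32 members in the tumors and rank 14 in the glands. The highest level per kb among the members was that of Chmp2a in both groups, at 174 in the tumors and 131 in the glands, and the lowest were those of Chmp4c and Vps37d.

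To answer whether the partners of TSG101 changed with tumor formation, the 10 tumors were compared with the 3 glands in a limma fit across 11795 genes. Of the 31 members tested, 2 were higher in the tumors (Chmp4c and Cep55), 2 were lower (Vps37b and Vps4a), and 27 were not called. The share of members called was 12.9%, whereas 27.8% of all genes tested were called, 14.8% as higher and 13% as lower. Together with a change of more than 2-fold, 3 members passed (Chmp4c, Cep55 and Vps37b), beside 17.2% of all genes. The log2 fold changes of 27 members lay within 0.5 of 0, and the median over the members was 0.03, beside 0.01 over all genes tested. The split into higher and lower members followed the scaling of the libraries. With plain cpm of the total reads 6 were higher and 1 was lower (23% and 5.16% of all genes). With scaling to the epithelial markers 1 was higher and 20 were lower (5.39% and 54.1% of all genes). The median of all genes stood at 0.33 and -0.81, respectively. Of these 13 markers, 5 were called higher and 0 lower in the fit as reported, so that the scaling itself rests on genes that rose. Krt7, Krt5 and Krt14 rose the most (log2 fold changes 3.32, 2.82 and 1.73), whereas Krt8, Krt18 and Krt19 stood at 0.08, 0.22 and -0.48. The tumor and gland values did not overlap for Chmp4c and Cep55, with all tumors above all glands (10.7% of all genes), and for Vps37b, with all tumors below all glands (8.53% of all genes). The p-values treat tumors of a mouse as separate samples. They kept the calls of Chmp4c, Cep55 and Vps37b with 6 mouse means in place of the 10 tumors, but not that of Vps4a (adjusted p = 0.0554). Without tumor 9 and gland 3, the libraries with the highest Rn45s share of their groups, Chmp4c, Cep55 and Vps37b were called, Vps4a was not, and Chmp2a was called higher (limma, adjusted p = 0.0241).

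**Figure D1:**
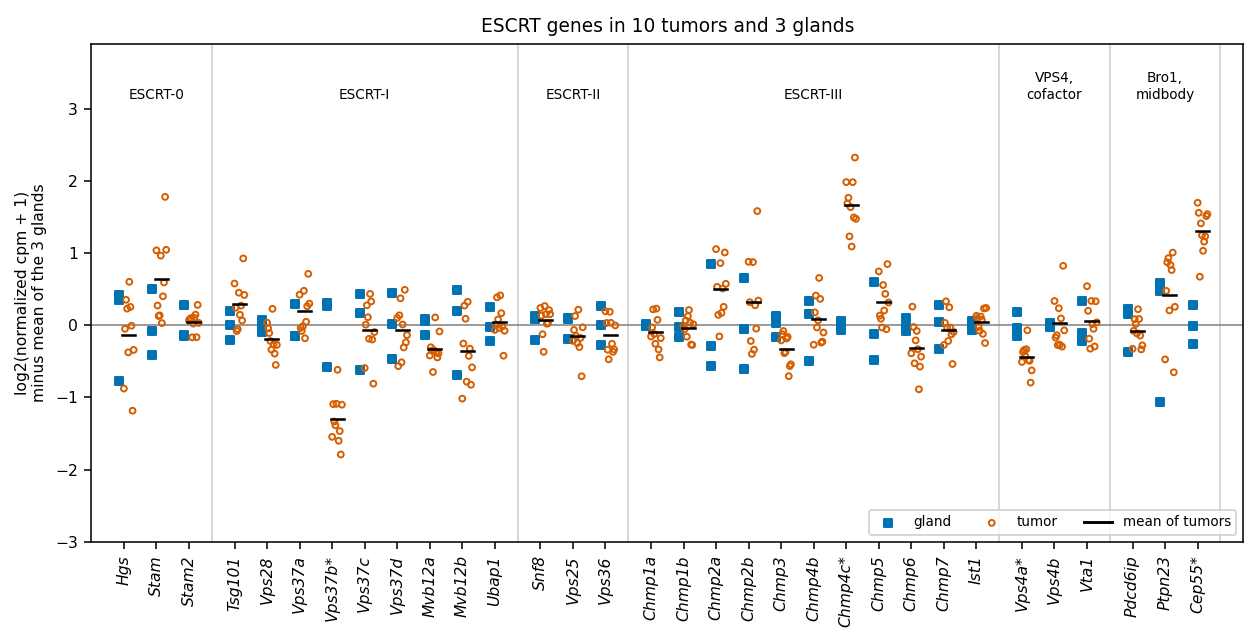
Log2(normalized cpm + 1) of the 32 ESCRT genes (x axis, by complex) in each of 3 glands (squares) and 10 tumors (circles), minus the mean of the glands (y axis), with the mean of the tumors as a bar and an asterisk at genes past an adjusted p of 0.05. Most tumor means lie within 0.5 of 0, Chmp4c and Cep55 lie above all gland values and Vps37b below them.

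Among the 11 ESCRT-III genes, Chmp4c was the member called different. It encodes a filament subunit that takes part in abscission and in its checkpoint (Entrez 66371; chromosome 3, 10366973 to 10391005). Its level was 4.50, 4.75 and 5.0 normalized cpm in the glands, which rested on 41 to 105 reads each. In the tumors it ranged from 11.2 to 27.8 with a median of 17.2, and the lowest tumor (tumor 6) had over 2-fold the level of any gland. The mean rose from 4.75 ± 0.25 (SD, n = 3) to 17.8 ± 4.92 (SD, n = 10). On the log2 scale the change was 1.67 with a standard error of 0.22 (limma, adjusted p = 6.59e-05). All 3 glands lay below the filter value of 5 normalized cpm, so that Chmp4c entered this test through the tumors alone and had to differ to be tested. In the fit without a filter the adjusted p was 6.13e-05 (limma, 15213 genes). The call held in all 29 alternatives, with log2 fold changes from 0.92 to 1.95 and a highest adjusted p of 0.0470. The related Chmp4b was not called. It had 171, 194 and 109 normalized cpm in the glands and 127 to 243 in the tumors, with a median of 156 (log2 fold change 0.08, limma adjusted p = 0.826). Even in the tumors, the level per kb of Chmp4c was 2.88 normalized cpm, against 103 of Chmp4b.

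Cep55, which recruits ESCRT-I and ALIX to the midbody, was the other member that rose (Entrez 74107; chromosome 19, 38054970 to 38074425). The glands had 7.15, 9.04 and 5.85 normalized cpm, and the tumors ranged from 12.1 in tumor 3 to 25.7 in tumor 1 with a median of 19.8. No tumor value reached down to the gland values. The mean was 19.8 ± 4.08 (SD, n = 10) against 7.35 ± 1.6 (SD, n = 3), a log2 fold change of 1.31 with a standard error of 0.20 (limma, adjusted p = 2.37e-04). Cep55 is expressed in dividing cells, and mitosis markers moved in the same direction. All 10 mitosis markers had a higher mean in the tumors and 7 of them were called higher, and their sum was 343 to 580 normalized cpm in a tumor and 154 to 348 in a gland. Their part in the result was not tested. When the libraries were scaled to the mean log2 level of the epithelial markers, the log2 fold change of Cep55 was 0.54 (limma, adjusted p = 0.159). That of Chmp4c was 0.92 (limma, adjusted p = 0.0470), while the median of all genes fell to -0.81.

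The RefSeq sequence of GRCm38.p6 before an annotated start of Cep55 is shown because it holds letters that are known from promoters of cell cycle genes. The sequence before another annotated start (chr19:38054734-38054983) overlaps it and holds the GC box but neither TTTGAA nor CCGGAAG. The one shown covers chr19:38054791-38055040 on the plus strand, and capitals mark the cell cycle homology letters TTTGAA and the GC box GGGCGG (both here on the opposite strand) and the ETS letters CCGGAAG.
Cep55 promoter: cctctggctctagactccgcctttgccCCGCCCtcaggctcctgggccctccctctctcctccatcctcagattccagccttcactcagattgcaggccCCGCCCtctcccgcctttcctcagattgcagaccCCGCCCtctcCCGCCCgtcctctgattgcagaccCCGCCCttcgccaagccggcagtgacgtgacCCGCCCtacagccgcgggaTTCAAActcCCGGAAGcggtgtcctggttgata
Promoter sequences were at hand for 24 of the member genes (27 promoters of 250 bases), and each motif was searched on both strands. TTTGAA was found in 4 of 27 member promoters, those of Mvb12a, Pdcd6ip, Chmp2b and Cep55 (14.8%, beside 16% of all 32851 promoters). CCGGAAG was found in the promoters of Chmp5, Tsg101 and Cep55 (11.1% beside 6.91%), and GGGCGG in 13 (48.1% beside 32.7%). The E-box CACGTG stood in the promoter of Pdcd6ip only (3.70% beside 6.02%) and CCAAT in 6 (22.2% beside 33.8%). The median GC content was 61.2% in the member promoters and 52.4% in all promoters. Motifs can overlap each other, and a match is a description of the letters and not a binding site.

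Vps37b was the member with the largest fall. It is 1 of 4 alternative VPS37 subunits of ESCRT-I, which join TSG101 and VPS28 in the stalk of the complex (Entrez 330192; chromosome 5, 124004641 to 124032260). The glands had 138, 142 and 76.4 normalized cpm, and the tumors ranged from 32.3 in tumor 9 to 74.2 in tumor 6 with a median of 43.9. All tumors lay below all glands, although tumor 6 and gland 3 almost met. The mean was 47.0 ± 12.0 (SD, n = 10) against 119 ± 36.7 (SD, n = 3), a log2 fold change of -1.30 with a standard error of 0.24 (limma, adjusted p = 8.26e-04). Markers of other cell types differed in both directions. The sums of the adipocyte markers, given above, and of the 6 milk genes (1309 to 49195 normalized cpm in a tumor and 117394 to 175636 in a gland) were lower in all tumors than in all glands, as Vps37b was, and the 6 milk genes and the 4 adipocyte markers past the filter were all called lower. The sum of the 10 lymphocyte markers was 14.5 to 147 normalized cpm in a tumor and 602, 31.3 and 576 in the glands, where gland 2 with the lowest sum had the highest Vps37b. The 6 endothelial markers were all called lower, with sums of 47.7 to 104 in the tumors and 242 to 545 in the glands. Of the 7 macrophage markers, 5 were called higher and 0 lower, with sums of 367 to 736 in the tumors and 312 to 321 in the glands. The part of these cell types in the result was not tested.

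Vps4a, an ATPase that disassembles ESCRT-III, was the other member that fell (Entrez 116733; chromosome 8, 107031269 to 107045760). It had 48.7, 61.4 and 52.8 normalized cpm in the glands and 30.7 to 51.4 in the tumors, with a median of 39.2. Of the 10 tumors, 9 lay below all glands, and tumor 6 lay within the gland range. The log2 fold change was -0.44 with a standard error of 0.15 (limma, adjusted p = 0.0375). The call was lost in 9 of 13 fits that left out a library (without tumor 1, 2, 4, 7, 8 or 10 or without any of the glands), with log2 fold changes of -0.35 to -0.52 and adjusted p-values of 0.05 to 0.0627, apart from 0.194 without gland 2 (limma). Its paralog Vps4b, which was not called, had 107, 109 and 111 normalized cpm in the glands and 88.5 to 193 in the tumors (log2 fold change 0.03, adjusted p = 0.942). The cofactor Vta1, which activates the ATPases, ranged from 31.5 to 58.3 in the tumors and from 34.1 to 50.2 in the glands (log2 fold change 0.06, adjusted p = 0.849).

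**Figure D2:**
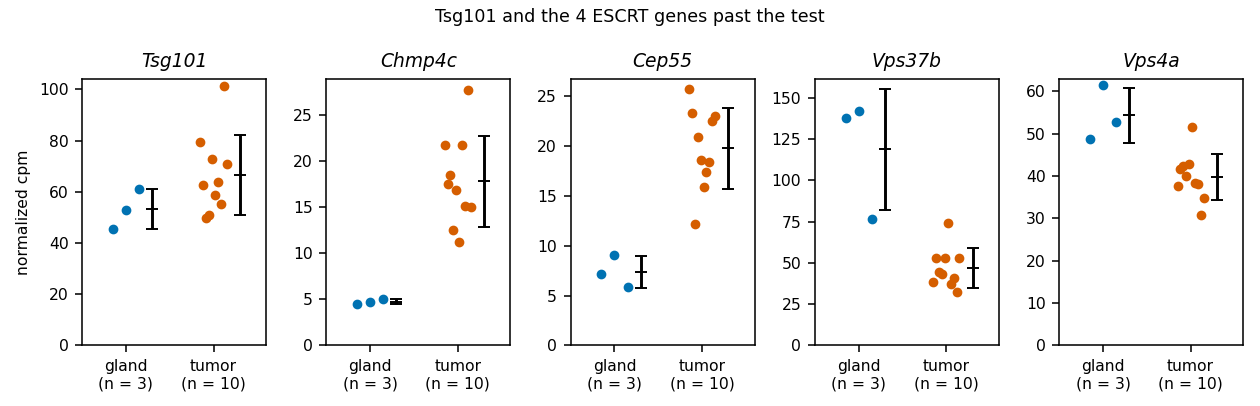
Normalized cpm (y axis, from 0) of Tsg101 and of the 4 ESCRT genes past the test in each gland and each tumor, with the mean and SD of each group beside the points. Chmp4c and Cep55 are higher in all tumors, Vps37b is lower in all tumors, and Tsg101 and Vps4a overlap between the groups.

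None of the 3 ESCRT-0 genes was called. Hgs, which encodes the cargo receptor HRS, had 61.7, 65.3 and 27.9 normalized cpm in the glands and 20.7 to 73.9 in the tumors with a median of 47.4 (log2 fold change -0.14, limma adjusted p = 0.803). Its partner Stam had 22.1, 28.1 and 42.9 in the glands and 30.6 to 105 in the tumors with a median of 42.8 (0.64, adjusted p = 0.171). Gland 3 was the lowest gland in Hgs and the highest in Stam, and the groups overlapped in both genes. Stam2, the paralog of Stam, was narrow by contrast, at 37.5, 50.9 and 37.7 in the glands and 36.9 to 50.8 in the tumors (0.05, adjusted p = 0.821).

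Of the other ESCRT-I genes, none was called. Vps28, the core subunit that binds TSG101, ranged from 55.3 to 95.5 normalized cpm in the tumors and from 76.6 to 85.8 in the glands (log2 fold change -0.19, limma adjusted p = 0.408). Vps37a had 46.4, 46.7 and 63.8 in the glands and 45.5 to 85.4 in the tumors (0.19, adjusted p = 0.507), and Vps37c had 26.7, 32.2 and 15 in the glands and 13 to 32.1 in the tumors (-0.07, adjusted p = 0.870). These genes are the alternatives of Vps37b in the complex, and their tumor and gland values overlapped. Vps37d was near the limit of detection, at 1.06 to 3.30 normalized cpm in the tumors and 1.22 to 3.15 in the glands, with 7 to 63 reads a library (-0.06, adjusted p = 0.871 in the fit without the filter). Among the genes of the fourth, regulatory subunit, Mvb12a lay below all glands in 8 of 10 tumors (32 to 54.7 against 46.0 to 53.8; -0.33, adjusted p = 0.128). Mvb12b ranged from 13 to 34.5 in the tumors and from 16.6 to 38.8 in the glands (-0.35, adjusted p = 0.434). Ubap1, which takes the place of MVB12 in ESCRT-I of the endosome, ranged from 27.5 to 49.9 in the tumors and from 31.8 to 44.4 in the glands (0.04, adjusted p = 0.879).

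The 3 ESCRT-II genes, which link ESCRT-I to the assembly of ESCRT-III, had log2 fold changes between -0.15 and 0.07 and were not called. Snf8 ranged from 31.1 to 48.8 normalized cpm in the tumors and from 34.8 to 44.3 in the glands (limma, adjusted p = 0.767). Vps25 ranged from 48.7 to 93.3 and from 69.9 to 86.3, respectively (adjusted p = 0.553), and Vps36 from 40.7 to 65.2 and from 47.1 to 68.6 (adjusted p = 0.624). All gland values of the 3 genes fell within the tumor range except that of gland 3 in Vps36.

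The other ESCRT-III genes were not called and included the most abundant members. Chmp2a, the subunit that recruits VPS4, had 87.5, 106 and 234 normalized cpm in the glands and 116 to 270 in the tumors with a median of 186 (log2 fold change 0.50, limma adjusted p = 0.247). Gland 3 lay above the tumor median and the other 2 glands below all tumors, and without gland 3 the log2 fold change was 0.92 and passed the test (adjusted p = 0.0243). Its paralog Chmp2b had 91.6, 135 and 221 in the glands and 106 to 421 in the tumors with a median of 172 (0.33, adjusted p = 0.568). Here again gland 3 was the highest gland, and tumor 9 had over 4-fold the level of gland 1. Chmp5, which binds the cofactor of VPS4, had 66.2, 85.4 and 140 in the glands and 89.0 to 167 in the tumors (0.32, adjusted p = 0.347). Without gland 1 the log2 fold changes of Chmp2b and Chmp5 were 0.02 and 0.08. Without gland 3 they were 0.65 and 0.62, and none of these was called. Chmp3 lay below all glands in 8 of 10 tumors (81.1 to 126 against 119 to 145; -0.33, adjusted p = 0.141), and Chmp6, which nucleates the filament, in 7 of 10 (10.2 to 23.9 against 18.7 to 21.4; -0.32, adjusted p = 0.268).

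The remaining ESCRT-III genes differed by 0.10 or less on the log2 scale. Chmp1a ranged from 83.8 to 135 normalized cpm in the tumors and from 113 to 116 in the glands (log2 fold change -0.10, limma adjusted p = 0.687), and Chmp1b from 47.3 to 66.6 and from 51.3 to 65.6 (-0.03, adjusted p = 0.892). Chmp7, which directs ESCRT-III to the nuclear envelope, ranged from 29.6 to 54.8 and from 34.4 to 53.0 (-0.07, adjusted p = 0.809). Ist1, a regulator of VPS4, ranged from 93.8 to 132 and from 106 to 116 (0.04, adjusted p = 0.848). Of the Bro1 family, Pdcd6ip, which encodes ALIX, ranged from 150 to 221 in the tumors and from 146 to 221 in the glands (-0.09, adjusted p = 0.749). Ptpn23, which encodes HD-PTP and sorts EGF receptors at the endosome, had 55, 59.6 and 18.2 in the glands and 24.6 to 79.8 in the tumors with a median of 61.1 (0.42, adjusted p = 0.473). Its value in gland 3 lay below all tumors. Without gland 3 the log2 fold change of Ptpn23 was -0.11, and without gland 1 or 2 it was 0.66 or 0.72, with none called.

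Of 34 genes that work with the ESCRT complexes, chosen as ubiquitin ligases, deubiquitinases, cargo adaptors and abscission factors, 1 was higher and 4 were lower in the tumors (5 of 34, beside 27.8% of all genes), and their median log2 fold change was -0.03. Wwp2, a HECT-type ubiquitin ligase, had 47.1, 46.2 and 30.8 normalized cpm in the glands and 92.3 to 242 in the tumors, with no overlap (log2 fold change 1.88, standard error 0.26, limma adjusted p = 8.92e-05). Its paralog Wwp1 went in the other direction, from 35.3, 32.7 and 23.0 in the glands to 16.2 to 28.6 in the tumors (-0.54, adjusted p = 0.0348), with some overlap at gland 3, and is named because it was the remaining gene past the test. Gga2, of the GGA family of adaptors, had 56.9, 50.5 and 41.7 in the glands and 13.2 to 34.7 in the tumors (-1.22, adjusted p = 8.97e-04). Stambpl1, which encodes a deubiquitinase of the AMSH family, had 33.0, 34.7 and 30.6 in the glands and 13 to 25.9 in the tumors (-0.76, adjusted p = 0.00345). Tom1l1, an adaptor that binds TSG101, had 34.7, 49.5 and 31.3 in the glands and 15.2 to 32.3 in the tumors (-0.63, adjusted p = 0.0376). When 1 library was left out, Wwp2, Gga2 and Stambpl1 were called in all 13 fits. Tom1l1 lost its call in 7 of 13 (without tumor 1, 4, 5, 8 or 10 or gland 1 or 2), with log2 fold changes of -0.76 to -0.43 over the 13 fits. Wwp1 lost its call in 6 of 13 (without tumor 2, 5, 8 or 10 or gland 1 or 2), with log2 fold changes of -0.72 to -0.42, and with the 6 mouse means (-0.50, limma adjusted p = 0.108). Among the 4 lower genes, Gga2 and Stambpl1 did not overlap between tumors and glands, whereas Wwp1 and Tom1l1 did. Uevld, a relative of Tsg101 with the same ubiquitin-binding fold, had 14.4, 16.3 and 12.7 in the glands and 14.9 to 21.2 in the tumors (0.33, adjusted p = 0.0961). Mdm2, a ubiquitin ligase whose regulation has been tied to TSG101, had 43.2, 46.7 and 64.2 in the glands and 47.0 to 89.4 in the tumors (0.34, adjusted p = 0.230), and neither passed the test.

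Ratios of related members within a library ask whether the composition of a complex differed. The scaling of the library cancels in them up to the pseudocount, whereas a dependence on GC content does not. Of 11 ratios, 2 differed between tumors and glands in an exact permutation test over the 13 libraries, whose smallest possible p is 0.0035. The log2 ratio of Vps37b to Vps37a was 1.55, 1.58 and 0.26 in the glands and ranged from -1.37 in tumor 9 to 0.69 in tumor 6. Tumor 6 lay within the gland range and the other 9 tumors below it, with a mean of -0.36 ± 0.55 (SD, n = 10) against 1.13 ± 0.76 (SD, n = 3), a difference of -1.49 (exact permutation p = 0.00699, two-sided, adjusted over 11 ratios to 0.0385). The log2 ratio of Chmp4c to Chmp4b was -4.97, -5.08 and -4.20 in the glands and ranged from -4.32 in tumor 6 to -2.20 in tumor 9. Again tumor 6 lay within the gland range and the other 9 tumors above it, and the means of -3.17 and -4.75 differed by 1.59 (exact permutation p = 0.00699, adjusted 0.0385). Vps37b and Chmp4c were already called alone from the same values, so that these ratios are not separate support for a difference. When a tumor other than tumor 6 was left out, both adjusted p-values were 0.05 and no longer under the threshold, and without tumor 6 they were 0.025. With 2 glands the smallest possible p is 0.0152, so that 2 ratios alone could not pass. Without gland 1, 2 or 3 the differences were -1.3, -1.3 and -1.9 for Vps37b to Vps37a and 1.5, 1.4 and 1.9 for Chmp4c to Chmp4b, with adjusted exact permutation p-values of 0.167, 0.167 and 0.0833 for both. The 10 tumors came from 6 mice, and with the means of the 6 mice against the 3 glands the differences were -1.5 and 1.6. Both ratios then had the smallest possible exact permutation p of 0.0119, adjusted 0.0655, and 0 ratios passed.

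The GC content of the longest transcript was 58.0% for Vps37b and 39.8% for Vps37a. The GC slope of a library is the change of the log2 deviation of all genes from their mean per 10% of GC. Tumor 9 with the lowest Vps37b to Vps37a ratio had the lowest GC slope of the tumors (-0.468), tumor 6 with the highest ratio had the highest slope (0.346), and gland 3, the lowest gland, had a slope of -0.296. After removal of the trend with GC content and transcript length from each library, an alternative chosen after seeing the data, this log2 ratio ranged from -0.62 to 0.075 in the tumors and from 0.61 to 1.31 in the glands (difference -1.39, exact permutation p = 0.0035, adjusted over 10 ratios to 0.0117). That of Chmp4c to Chmp4b then ranged from -4.17 to -2.24 in the tumors and from -5.40 to -4.01 in the glands (difference 1.78, adjusted exact permutation p = 0.0175). Mvb12b to Mvb12a (0.42), Ptpn23 to Pdcd6ip (0.58) and Tsg101 to Vps28 (0.65) passed as well after the removal, with adjusted exact permutation p-values of 0.0117, 0.0117 and 0.028, so that 5 of 10 ratios passed. Vps37d to Vps37a was left out there, because Vps37d is below the filter.

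In the values as deposited, the other 9 ratios did not pass. The log2 ratio of Tsg101 to its ESCRT-I partner Vps28 was -0.74, -0.68 and -0.43 in the glands and ranged from -0.70 to 0.86 in the tumors (difference 0.49, exact permutation p = 0.0944, adjusted 0.256). In 7 of 10 tumors it lay above all glands. Differences of similar size were seen for Ptpn23 to Pdcd6ip (0.51), Vps4b to Vps4a (0.47) and Stam2 to Stam (-0.59), each with an adjusted exact permutation p of 0.256. The differences were smaller for Vps37c to Vps37a (-0.26), Vps37d to Vps37a (-0.26), Chmp2b to Chmp2a (-0.17), Chmp1b to Chmp1a (0.07) and Mvb12b to Mvb12a (-0.03), with adjusted exact permutation p-values from 0.631 to 0.948.

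**Figure D3:**
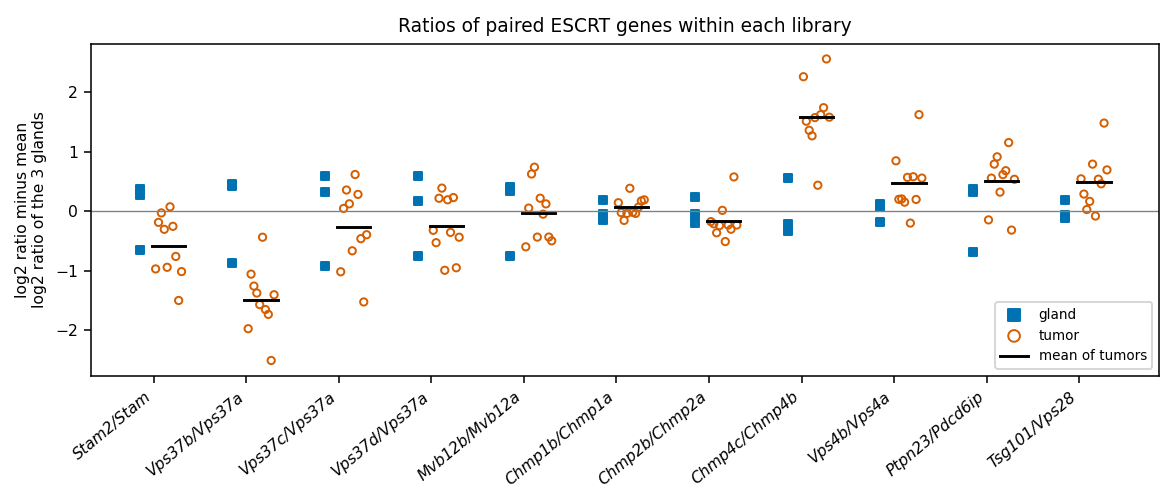
Log2 ratio of each of 11 gene pairs (x axis) in each of 3 glands (squares) and 10 tumors (circles), minus the mean log2 ratio of the glands (y axis), with the mean of the tumors as a bar. The tumor means of Vps37b to Vps37a and of Chmp4c to Chmp4b lie 1.49 below and 1.59 above the glands.

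Covariation with Tsg101 was then examined within the 10 tumors. With the log2 Tsg101 level as the covariate in limma, 15 of 30 other members (50%) passed an adjusted p of 0.05 over 11794 genes, 8 with a positive and 7 with a negative relation. The share was close to the background, since 47.1% of all genes passed, 22.2% positive and 24.9% negative. The counts moved with the scaling: with plain cpm of the total reads 4 members covaried (3 positive and 1 negative) beside 12.5% of all genes, and with scaling to the epithelial markers 22 did (20 positive and 2 negative) beside 57.2%, and the r of Chmp7 was 0.64 in place of -0.84. The positive members were Chmp2b, Chmp5, Stam, Vps4b, Chmp2a, Vps37a, Vta1 and Chmp4c, and the negative ones were Vps25, Ubap1, Vps37c, Mvb12b, Chmp7, Hgs and Ptpn23. Of all members, 13 had an r above 0 and 17 an r below 0. Stam and Hgs, whose proteins form the ESCRT-0 dimer, had an r of 0.92 and -0.90, and after removal of the trend with GC content and length an r of 0.19 and 0.20 with neither called. Within ESCRT-I, the core partner Vps28 had an r of -0.38 and was not called.

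The 3 members with the highest r and the 3 with the lowest are given in turn, picked by their r in these same 10 tumors. Their permutation p-values are not adjusted for this choice, and those over 10 tumors treat tumors of a mouse as separate samples. Chmp2b had the highest r of the members. It was at 106, 110 and 120 normalized cpm in tumors 4, 6 and 3, and at 421 in tumor 9, where Tsg101 was highest. Pearson's r was 0.957 (permutation p = 0.00018) and Spearman's rho 0.927 (permutation p = 0.00038) over 10 tumors, with a limma adjusted p of 3.27e-04, and without tumors 9 and 3, the farthest from the median of Tsg101, r was 0.921. Over the means of 6 mice r was 0.990 (exact permutation p = 0.00278). Chmp5 gave an r of 0.923 (permutation p = 0.00018) and a rho of 0.927 (permutation p = 0.00036), with a limma adjusted p of 0.00152, an r of 0.917 without those tumors and of 0.931 over the mouse means (exact permutation p = 0.0111). Stam, at 30.6 in tumor 6 and 105 in tumor 9, gave an r of 0.919 (permutation p = 0.00094) and a rho of 0.830 (permutation p = 0.00516), with a limma adjusted p of 5.16e-04, an r of 0.812 without those tumors and of 0.943 over the mouse means (exact permutation p = 0.0111). All 3 relations kept their sign without the tumors farthest in Tsg101.

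Ptpn23 had the lowest r. It was at 24.6 and 28.0 normalized cpm in tumors 9 and 1, the tumors highest in Tsg101, and at 72.6 to 79.8 in tumors 3, 4 and 8, the lowest in Tsg101. Its r was -0.939 (permutation p = 8e-05) and its rho -0.939 (permutation p = 0.00032), with a limma adjusted p of 3.44e-04, an r of -0.918 without tumors 9 and 3 and of -0.831 over the mouse means (exact permutation p = 0.00833). Hgs, at 20.7 in tumor 9 and 73.9 in tumor 6, gave an r of -0.895 (permutation p = 0.00082) and a rho of -0.830 (permutation p = 0.00452), with a limma adjusted p of 8.08e-04, an r of -0.794 without those tumors and of -0.821 over the mouse means (exact permutation p = 0.0389). Chmp7 gave an r of -0.838 (permutation p = 0.00366) and a rho of -0.770 (permutation p = 0.01298), with a limma adjusted p of 0.0120. Its r was -0.565 without those tumors and -0.758 over the mouse means (exact permutation p = 0.0667). With mouse means in place of the tumors, 5 members passed limma's test (Chmp2b, Stam, Vps4b, Chmp2a and Mvb12b), beside 14.9% of all genes (10.2% positive and 4.71% negative).

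**Figure D4:**
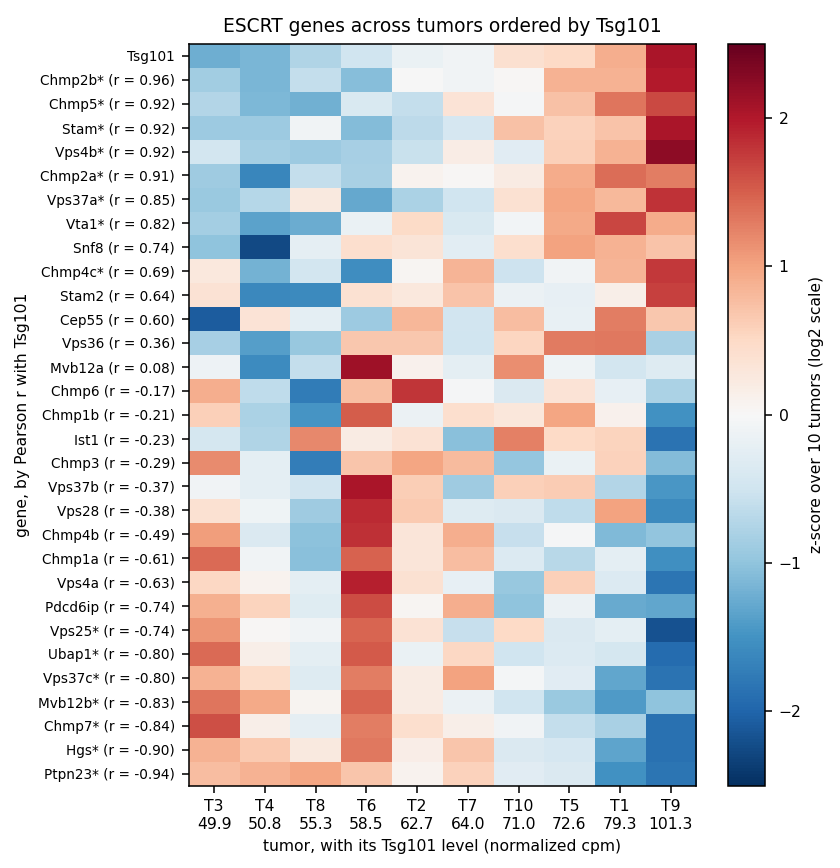
Z-scores of log2(normalized cpm + 1) of the ESCRT genes (rows, ordered by Pearson r with Tsg101, asterisk at an adjusted p under 0.05) in the 10 tumors (columns, ordered by Tsg101, whose level in normalized cpm stands under each tumor). Chmp2b, Chmp5 and Stam run from low to high with Tsg101, and Ptpn23, Hgs and Chmp7 from high to low.

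The members at the ends of this order differed in base composition. The GC content of the longest transcript had a median of 43.5% (39.8% to 53.3%) in the 8 positive members and 57.8% (48.4% to 58.3%) in the 7 negative ones. Over all genes the medians were 45.4% and 54.5%. Across the 30 members the r with Tsg101 correlated with GC content at a Pearson r of -0.64, and across 11560 genes at -0.47, where genes are not independent replicates and all points share the same tumors. Tsg101 has 44.0%. Single members departed from this relation in both directions. Chmp2a (53.3%) was a positive member, Snf8 (55.3%) had an r of 0.74 and Mvb12a (60.6%) an r of 0.077, whereas Ubap1 (48.4%) was a negative member, and Pdcd6ip (47.0%) and Chmp1b (40.6%) had an r of -0.74 and -0.21.

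Stretches of the mouse coding sequences show this composition, with G and C in capitals. Each is the 90-base window whose GC content is nearest to that of the whole coding sequence, on the coding strand, from GENCODE M21 (GRCm38). The coding GC content is 44.7% in Chmp2b (bases 79 to 168 shown), 46.0% in Stam (bases 19 to 108), 45.7% in Tsg101 (bases 1 to 90), 58.6% in Hgs (bases 1 to 90) and 58.2% in Ptpn23 (bases 8 to 97).
Chmp2b: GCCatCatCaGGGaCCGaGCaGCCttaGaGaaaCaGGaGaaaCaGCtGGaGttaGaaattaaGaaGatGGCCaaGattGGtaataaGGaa
Stam: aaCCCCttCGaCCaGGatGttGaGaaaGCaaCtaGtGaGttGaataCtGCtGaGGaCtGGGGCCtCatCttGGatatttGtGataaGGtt
Tsg101: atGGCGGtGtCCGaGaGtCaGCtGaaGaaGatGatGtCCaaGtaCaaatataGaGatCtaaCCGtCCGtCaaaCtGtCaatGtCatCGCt
Hgs: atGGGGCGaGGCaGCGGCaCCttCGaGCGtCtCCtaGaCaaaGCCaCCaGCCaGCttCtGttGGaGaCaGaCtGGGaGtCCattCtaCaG
Ptpn23: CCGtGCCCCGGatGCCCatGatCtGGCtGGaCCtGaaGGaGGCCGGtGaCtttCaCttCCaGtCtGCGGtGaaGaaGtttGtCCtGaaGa
Of the 90 bases shown, 40 are G or C in Chmp2b, 41 in Stam and in Tsg101, 53 in Hgs and 52 in Ptpn23.

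The libraries themselves differed in how their values ran with GC content. The slope of the log2 deviation of all genes per 10% of GC ranged from -0.468 in tumor 9 and -0.379 in tumor 1 to 0.262 in tumor 3 and 0.346 in tumor 6. Tsg101 was highest in tumors 9 and 1, where GC-poor transcripts were high, and its log2 level correlated with the slope at an r of -0.902 (permutation p = 0.00054, adjusted over 3 library measures 0.00162) and a rho of -0.879 (permutation p = 0.00176) over 10 tumors. Without tumors 9 and 3 the r was -0.819, and over the means of 6 mice -0.888 (exact permutation p = 0.00278). The slopes were computed after seeing the data and in part restate how r with Tsg101 ran with GC content. These p-values are therefore not an independent test. With the share of Rn45s reads the r was 0.681 (permutation p = 0.100), which was 0.004 without tumors 9 and 3, and with the total of reads it was -0.222 (permutation p = 0.560). In the glands the slope was 0.242, 0.195 and -0.296, and gland 3 had the highest Chmp2a, Chmp2b, Chmp5, Stam and Vps37a and the lowest Hgs, Ptpn23, Vps37b, Vps37c and Mvb12b of the 3 glands.

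When the trend with GC content and transcript length was removed from each library, an alternative chosen after seeing the data, none of the 30 members and none of 11560 genes covaried with Tsg101 past the threshold in limma. At an unadjusted p under 0.05 there were 0 members and 682 genes. The r of the members then ranged from -0.48 to 0.66, with a smallest adjusted p of 0.834. It was 0.32 for Chmp2b, 0.66 for Chmp5, 0.19 for Stam, -0.30 for Ptpn23, 0.20 for Hgs and -0.04 for Chmp7. The 5 genes of all tested with the highest r in the values as deposited were Yrdc (0.979), Sap30 (0.974), Zcchc10 (0.974), Rtraf (0.973) and Arfgef1 (0.972), none of which is an ESCRT gene, with GC contents of 55.3%, 53.1%, 40.1%, 42.9% and 42.3%.

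**Figure D5:**
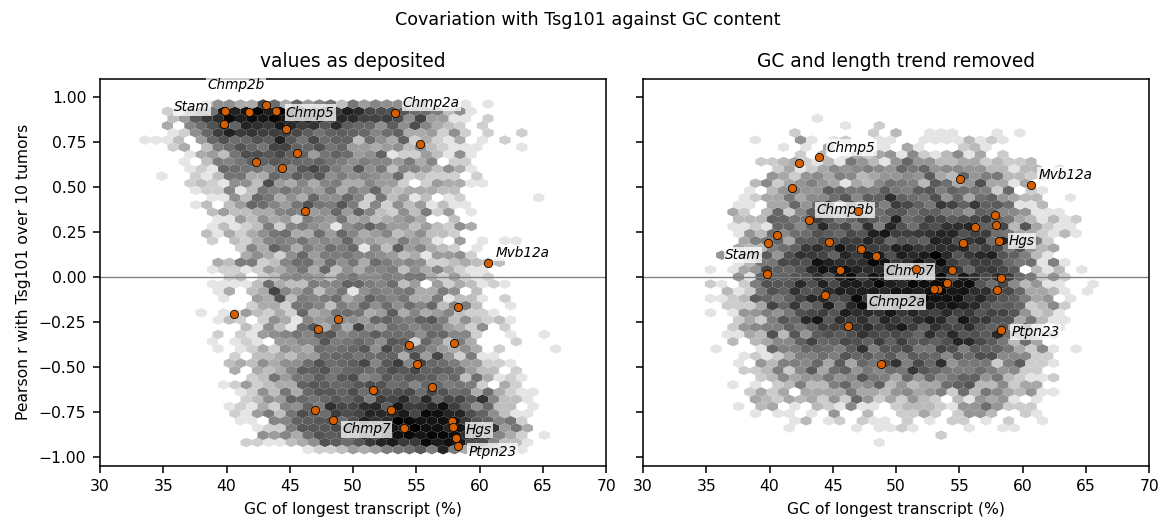
Pearson r with Tsg101 over 10 tumors (y axis) against the GC content of the longest transcript in percent (x axis), for all genes tested (gray, darker where more genes lie) and the 30 ESCRT genes (points), in the values as deposited and after the trend with GC content and length was removed. The r of the ESCRT genes falls with GC content in the values as deposited and ranges from -0.48 to 0.66 after the removal.

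The same removal changed which members differed between tumors and glands. Chmp4c and Cep55 were joined by Ptpn23 among the higher members (log2 fold change 0.54, limma adjusted p = 0.0125). Vps37b and Vps4a were joined among the lower members by Chmp3, Chmp6, Mvb12a and Vps28 (-0.42, -0.49, -0.66 and -0.60, with limma adjusted p-values of 0.0424, 0.0401, 4.27e-04 and 0.0389). In total 9 members passed, beside 38.2% of all genes, which is again no more than the background. The log2 fold change of Tsg101 was then 0.05 (limma, adjusted p = 0.779).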

How the data were processed

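Total RNA of flash-frozen tissue was sequenced as 75 bp paired-end reads. The authors mapped the reads to mm10 with Rsubread, counted them with featureCounts (the strand setting is not given in the sources used here) and used edgeR to normalize the counts. Each deposited signal value was a read count over the effective size of its library, and 100% of the values in each library came out as whole reads (tolerance 0.01 reads). Reads of paralogs, pseudogenes or overlapping genes could not be reassigned. The labels name a core facility and a sequencing company without assigning libraries, so that no batch could be formed.

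Tumors and glands were compared with limma 3.58.1 (variance trend, R 4.3.3) on log2(normalized cpm + 1) over all 13 libraries, with Benjamini-Hochberg adjustment over 11795 genes, and 3418 genes were left out by the filter. edgeR 4.0.16 and DESeq2 1.42.0 on the recovered reads were alternatives, since the planned limma test fits the deposited unit, and they called 3323 and 3848 genes beside 3277. The fits were also run on simulated data without shared mice and without GC slopes, so that this run has no bearing on those features. Covariation was fitted over the 10 tumors, permutations used 100000 resamples (SciPy 1.17.1), and ratios were tested with the exact permutation test. GC content and length were those of the longest GENCODE M21 transcript (98.0% of the genes tested had a match). GC slopes and the GC and length removal were computed within each library after seeing the data. Named were all members, Uevld and Mdm2 and the partners with the largest changes past the test (up to 3 in each direction), for covariation the 3 members with the highest and the 3 with the lowest r and the 5 genes with the highest r, and all ratios. The members and lists were chosen with earlier results of these data known. Same-numbered tumors and glands come from different mice. Marker lists were written from general knowledge: 13 epithelial, 10 adipocyte, 10 lymphocyte, 7 macrophage, 6 endothelial, 8 squamous, 6 milk and 10 mitosis genes.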

Additional observations from a re-analysis of the deposited data

Results flagged for a closer look

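In 4 of 32 ESCRT genes the highest tumor stood apart from the other 9 by more than Dixon's 95% critical value for 10 samples, which chance exceeds in about 1 of 20 groups. That is 12.5% of the members, beside 10.9% of all 11795 genes tested, in which the highest or the lowest tumor stood apart. Tumor 9 was the tumor that stood apart in 35.3% of those 1281 genes. Stam was at 105 normalized cpm in tumor 9, with the next tumor at 62.8. Chmp2b was at 421 in tumor 9, with the next tumor at 258, and Vps4b was at 193 in tumor 9, with the next at 138. These 3 genes were among those that covaried positively with Tsg101, and tumor 9 had the highest Rn45s share (27.4%) and the lowest GC slope (-0.468) of the tumors. Vps37b was at 74.2 in tumor 6, with the next tumor at 53.2, and tumor 6 had the highest GC slope (0.346). The part of these library measures in the 4 values was not tested.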

How the results depend on the processing

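The 29 alternatives of the comparison changed the scaling, pseudocount, filter, tool, mouse structure or libraries. With plain cpm of the total reads, the log2 fold change of Tsg101 was 0.62 and passed, 6 members were higher and 1 was lower (23% and 5.16% of all genes), their median was 0.35 and 4 covaried with Tsg101 (12.5% of all genes). With scaling to the epithelial markers, Tsg101 was at -0.54, 1 member was higher and 20 were lower, their median was -0.82, 28 of 34 partner genes were called beside 59.5% of all genes (27.8% in the comparison as reported), and 15 genes with a small positive value in the comparison became lower: Stam2 (-0.78), Ubap1 (-0.79), Snf8 (-0.76), Chmp4b (-0.77), Ist1 (-0.80), Usp8 (-0.79), Tom1 (-0.70), Tollip (-0.62), Gga3 (-0.77), Arrdc1 (-0.58), Lrsam1 (-0.79), Spast (-0.81), Cc2d1a (-0.81), Cc2d1b (-0.72) and Lemd2 (-0.83), beside a median of -0.81 over all genes, and the r of Chmp7 with Tsg101 was 0.64. With 6 mouse means, 1 member was lower (11.4% of all genes), 5 covaried (14.9% of all genes) and 0 ratios passed, where the smallest possible p was 0.0119. Without the mouse of tumors 2 and 3, 1 member was lower (11.4% of all genes), and without that of tumors 8, 9 and 10, 1 member was lower (10.6%) and 3 partner genes were called (23.3%). The cause was not tested.

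Leaving out 1 library at a time gave 2 to 3 higher members (3 without gland 3), 1 to 3 lower members (3 without tumor 6, 1 in the 9 fits that lost Vps4a), a member median of -0.11 to 0.071 (-0.11 without gland 3), 3 to 7 partner genes (3 without tumor 5, 8 or 10 or gland 1 or 2, and 7 without gland 3), 11 to 16 covarying members (11 without tumor 9, beside 31.2% of all genes, and 16 without tumor 6 or 8, beside 46.3% and 46.9%), 0 to 2 ratios (2 without tumor 6) and a Tsg101 log2 fold change of 0.19 to 0.40, with 17.8% (2103, without gland 1) to 34% (without gland 3) of all genes called, 9.96% to 17.7% higher and 7.87% to 16.3% lower. Of the alternatives added after seeing the data, the removal of GC and length trends gave 6 lower members (21.9% of all genes), 0 covarying members, an r of 0.20 for Hgs, 5 of 10 ratios past the test and 0.42 for the difference of Mvb12b to Mvb12a (-0.03 before), and without tumor 9 and gland 3 there were 1 lower member (17.4% of all genes), 8 of 34 partner genes (36%) and 0 ratios (smallest possible p 0.0182). Without tumors 9 and 3, 9 members covaried beside 21% of all genes. As numbers pair no animals (r of same-numbered deviations -0.58, 0.04 and -0.66), the replicate block was fitted as an alternative only: 1 member was higher, 0 were lower, 0 partner genes passed and Tsg101 was at 0.25, with 4.61% of all genes (544) called. Vps37b (-1.33) and Cep55 (1.31) were not called in that fit (limma, adjusted p = 0.129 and 0.107). Of the values for single genes and ratios, 1862 kept their sign and side of the threshold, 87 lost their call, 53 gained one, 18 changed sign with a call on either side (given above), and 129 changed sign without a call on either side. Depth limits Vps37d, with 7 to 63 reads a library.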
